A study of Mus musculus with 4 samples.

Results

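At 24 h post-injury, the CD45+ cells of the muscularis from CCR2 KO mice were compared with those from WT mice. The comparison took in all cells of both libraries made at that time, which were 1674 WT cells and 1774 KO cells, or 3448 of the 5811 cells of the 4 libraries from 24 h and 72 h. Mice were C57BL/6J (WT) or B6.129S4-Ccr2tm1Ifc/J (Ccr2-/-), female and 12 weeks of age. All had undergone intestinal manipulation, a surgical handling of the small intestine that inflames its muscle layer, the muscularis externa. CD45, the pan-leukocyte surface protein, was used to sort the cells, and each library held the pooled tissue of several mice. The mutation was present in every cell of the animal, so that no cell type had been targeted alone. With 1 library per genotype there was no replicate, and no test between genotypes was possible. The intervals given are 95% intervals of counting error only, and mouse-to-mouse variation was not measured.

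CCR2 is the receptor for CCL2, CCL7 and related chemokines, and Ly6C-high monocytes need it to exit the marrow and to enter injured tissue, where they become macrophages (Mφs). Resident muscularis Mφs lie along the muscle and the enteric neurons. Neutrophils do not depend on CCR2 to enter tissue, and they carry granule proteins that are transcribed mainly while the cells mature in the marrow.

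The WT library held 21206308 UMIs (unique molecular identifiers, each standing for 1 captured transcript) and the KO library 10436694. The median was 12859 UMIs per cell in WT and 3281.5 in KO, and at most 1 cell barcode was shared between any pair of libraries. Each cell was given a class from a short list of defining markers, and 3288 of the 3319 gated cells (99.1%) received the same class from Leiden clusters. The clusters were themselves named from these markers, and cells without a class were left out, so this is not an independent check of the classes. The label of CD45+ cells fitted the data, with no cell of either library passing the gate for non-immune cells. Taking 3 cells as the most that a count of 0 allows, their share could be up to 0.179% in WT and 0.169% in KO. Ccr2, which lies at chr9:124101950-124113557 on the plus strand of GRCm38, was at 720 CPM (the UMIs of a gene scaled to an equal library total) in WT and 47.3 CPM in KO over all cells. The sources used here do not give which part of the gene this allele removes, so the KO level is the level of the 3′ tags that remained and not of an intact transcript.

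The makeup of the infiltrate was nearly inverted between the genotypes. Monocyte/Mφ-gated cells (Csf1r, Fcgr1, Adgre1 and further markers) were 1262 cells or 75.4% of WT (interval 73.3 to 77.4%) and 198 cells or 11.2% of KO (9.73 to 12.7%). Neutrophil-gated cells (Csf3r, Cxcr2, S100a8, S100a9, G0s2 and Mxd1) were 302 cells or 18.0% of WT (16.2 to 19.97%) and 1298 cells or 73.2% of KO (71.0 to 75.2%). The differences were -64.2 points for monocytes/Mφs (-66.7 to -61.6) and 55.1 points for neutrophils (52.3 to 57.8). There were 0.239 neutrophils for each monocyte/Mφ in WT and 6.56 in KO.

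The lymphocytes also took a larger share of the KO library, whereas the dendritic cells (DCs) did not clearly do so. T cells were 12 cells (0.717%) in WT and 66 (3.72%) in KO, a difference of 3.004 points (2.05 to 4.04). B cells were 5 cells (0.299%) and 35 (1.97%), and NK cells 4 cells (0.239%) and 28 (1.58%). Innate lymphoid cells were 1 cell in WT and 7 in KO, and the interval of their difference included 0 (-0.00946 to 0.755 points), whereas in the clusters the difference was 0.835 points and excluded 0 (0.327 to 1.43). DCs were 41 cells (2.45%) and 56 cells (3.16%), again with an interval of the difference that included 0 (-0.410 to 1.83 points). Among cells of at most 5% mitochondrial UMIs, the B cell difference was 0.182 points (-0.118 to 0.535) and no longer excluded 0.

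Since shares within a library sum to 100%, fewer monocytes/Mφs and more neutrophils per mouse cannot be told apart here. The shares were therefore also taken of the cells outside the monocyte/Mφ gate, where much of the neutrophil difference was gone. Neutrophils were 73.3% of these cells in WT and 82.4% in KO, a difference of 9.06 points (4.57 to 13.9). DCs were 9.95% of the same cells in WT and 3.55% in KO, and lymphocytes 5.34% and 8.63%. The lymphocyte difference was 3.29 points (0.377 to 5.62). Taken singly, the differences of T cells (-1.01 to 2.94), B cells (-0.704 to 2.11) and NK cells (-0.789 to 1.78) had intervals that included 0. The DC difference was -6.40 points (-9.77 to -3.66) here, whereas over all cells its interval included 0. For neutrophils and lymphocytes the order of the genotypes was the same as over all cells. Among DCs, the subset marked by Cd209a and Napsa (type 2 DCs) was 33 of 41 cells in WT and 45 of 56 in KO, which are 80.5% and 80.4%.

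**Figure D1:**
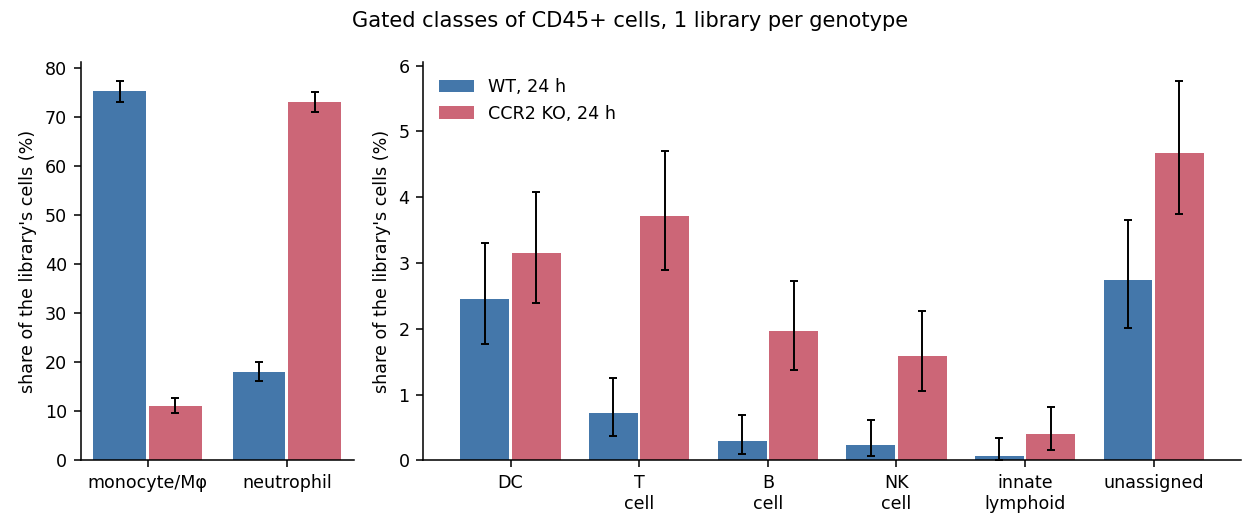
Share of each library's cells in each gated class (%), WT in blue and CCR2 KO in red at 24 h, with exact binomial 95% intervals of counting error as bars; the right panel has its own scale. Monocytes/Mφs were 75.4% in WT and 11.2% in KO, neutrophils 18.0% and 73.2%, and the intervals of DCs overlapped.

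To follow the genes behind this change, UMIs were summed over all cells of a library. A gene was called higher or lower when its CPM differed at least 2-fold (with 10 CPM added to both values) and the counting interval of the ratio excluded 1, among genes with at least 50 CPM in the higher library. Of 3487 genes, 347 were called higher in KO (9.95%) and 135 lower (3.87%), and the median over all genes was -0.16 on the log2 scale. Markers of the gates were not named.

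The genes furthest up in KO included secreted factors, receptors and granule proteins. Csf1, the growth factor of Mφs, was at 20.6 CPM in WT and 469 CPM in KO (log2 ratio 3.97). Il1f9, which encodes the cytokine IL-36γ, was at 17.3 and 321 CPM (3.60), and Hdc, the enzyme that makes histamine, at 69.2 and 776 CPM (3.31). Ltb, which encodes lymphotoxin beta, was at 42.7 and 556 CPM (3.43), with UMIs in 1182 of the 1774 KO cells, while 136 KO cells were gated as lymphocytes. The cytotoxic granule protease Gzmb was at 15.9 and 198 CPM (3.003). The gelatinase Mmp9, a granule protein of neutrophils, was at 111 and 922 CPM (2.94). The nicotinic acid receptor Hcar2 (3.42), the tetraspanin Cd9 (3.25), Plet1 (3.18) and the cystine transporter Slc7a11 (2.94) completed the 10 genes furthest up.

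Furthest down were acute phase and Mφ genes. Saa3, an acute phase serum amyloid, was at 3199 CPM in WT and 208 CPM in KO (log2 ratio -3.88), and Ccr2 followed (-3.67). Arg1, the arginase of tissue-repair Mφs, was at 1525 and 315 CPM (-2.24), and the platelet and Mφ chemokine Pf4 at 2460 and 569 CPM (-2.09). The clotting factor gene F13a1, a gene of monocytes, was at 364 and 61.4 CPM (-2.39), and the selenium carrier Selenop of resident Mφs at 563 and 121 CPM (-2.12). The lectin receptors Clec4a1 (-2.78) and Clec4a3 (-2.19), the chemokine Ccl8 (-2.11) and Ecm1 (-2.07) were the others. Clec4a1 and Clec4a3 are near-identical neighbours, and their UMIs may be split between them.

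How much of each difference came from the makeup of the library was computed by splitting it into a part from the share of UMIs of each class and a part from levels within classes. The part from class shares was more than 50% for 300 of the 347 genes called higher (median 81.3%) and for 107 of the 135 called lower (median 64.2%). Mmp9 (99.5%) and Hdc (89.4%) came from class shares almost entirely. For Cd9 (43.4%), Plet1 (41.6%), Saa3 (30.3%), Ccr2 (25.3%) and Clec4a1 (37.5%) the larger part lay within classes. Weighting each cell equally in place of each UMI turned the balance of the calls, with 72.0% of calls higher in KO by summed UMIs and 38.9% by the mean over cells.

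**Figure D2:**
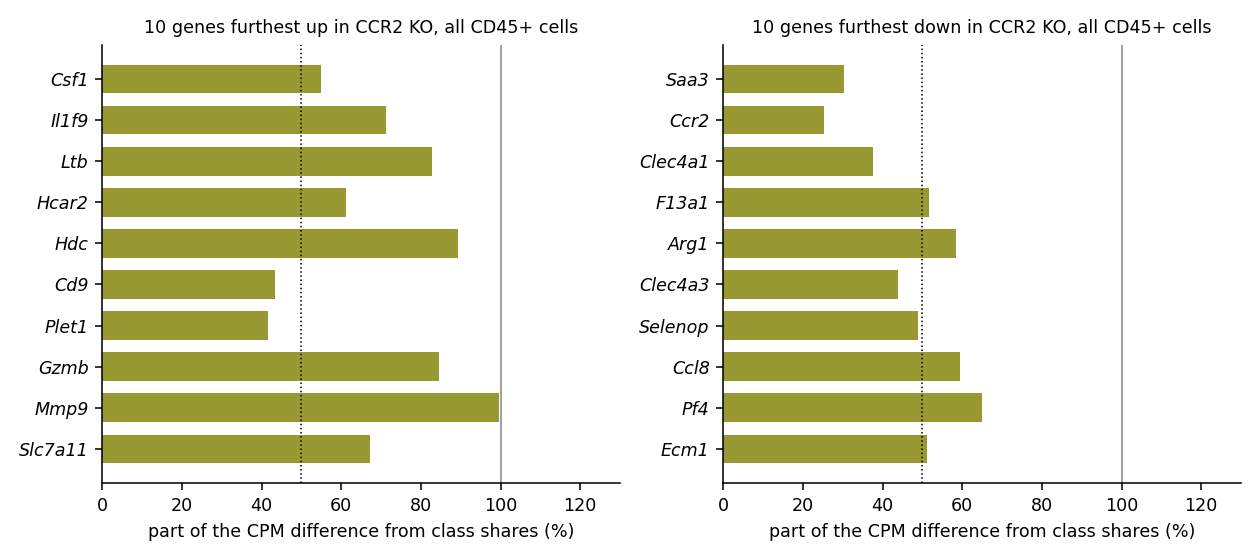
Percent of the CPM difference between CCR2 KO and WT over all CD45+ cells that came from the share of UMIs of each class (x axis), for the 10 genes furthest up (left) and the 10 furthest down (right); the dotted line is at 50%. Mmp9 stood at 99.5% and Ccr2 at 25.3%.

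Next, the classes were compared one by one, beginning with the monocytes/Mφs. The 198 KO cells were fewer but not shallower than the 1262 WT cells, with medians of 16367.5 and 14647 UMIs. Counted over all cells whatever their gate, the monocyte/Mφ clusters held 224 KO and 1278 WT cells. Of these, cluster 9 held 53 KO and 30 WT cells, a larger share in KO. Cluster 1 held 49 KO and 564 WT cells, a smaller share in KO. Cluster 0 held 100 KO and 594 WT cells, a nearly equal share of both genotypes. A change in the mix of monocytes and Mφs within the gate and a change within each cell cannot be told apart from summed levels. Of 3209 genes tested, 76 were called higher in KO (2.37%) and 28 lower (0.873%), with a median over all genes of -0.07. Ccr2 itself was at 757 CPM in WT and 92.5 CPM in KO (log2 ratio -2.90), and after thinning each cell to 1000 UMIs it was found in 48.4% of WT and 8.6% of KO cells (87.2% and 45.5% unthinned).

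Genes of newly arrived monocytes were lower among the KO cells, in part. Of 10 monocyte genes tested, 3 were called lower and 0 higher, with a median of -0.80. Ly6c2, the surface antigen that defines inflammatory monocytes, was at 146 CPM in WT and 65.6 CPM in KO (-1.04). Ifitm6 was at 162 and 64.8 CPM (-1.20), and Hp, which encodes haptoglobin, at 432 and 103 CPM (-1.97). Plac8 was at 1508 and 759 CPM (-0.98) and was not called. Ly6c2 shares reads with a near-identical gene, so that its level is uncertain.

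The genes of resident Mφs moved both ways. Of 16 tested, 4 were called higher and 3 lower, with a median of 0.21. The tetraspanins Cd81 and Cd9 were the furthest up, Cd81 at 49.0 CPM in WT and 386 CPM in KO (2.75) and Cd9 at 82.5 and 524 CPM (2.53). Cx3cr1, the fractalkine receptor of resident muscularis Mφs, was at 28.2 and 113 CPM (1.69), and Cd72 at 27.8 and 104 CPM (1.59). In contrast, Selenop was at 614 and 266 CPM (-1.18), the haemoglobin scavenger receptor Cd163 at 78.1 and 26.9 CPM (-1.26) and Cbr2 at 51.9 and 15.3 CPM (-1.29). C1qb, a complement subunit, was at 2073 and 2438 CPM (0.23), and Mrc1 (-0.19) and Apoe (-0.20) were not called either. The list thus held genes called in both directions.

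Most MHC class II genes, which present antigen to CD4+ T cells, were higher. Of 6 MHC class II genes tested, 4 were called higher and 0 lower, with a median of 1.05. H2-Ab1, a class II chain, had 1455 CPM in WT and 2998 CPM in KO (1.04), H2-Eb1 at 1121 and 2613 CPM (1.21), and Cd74, the invariant chain that guides class II molecules, at 4628 and 9624 CPM (1.05). H2-Aa was at 1549 and 3063 CPM (0.98) and just missed the limit of 2-fold. Of 11 MHC class I genes, 0 were called (median 0.057).

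Several chemokines and cytokines were higher in the KO monocytes/Mφs. Of 10 CC chemokines tested, 3 were called higher and 0 lower (median 0.81). Ccl7 was at 3516 CPM in WT and 7210 CPM in KO (1.03), whereas Ccl2, the main CCR2 ligand, was at 5277 and 9826 CPM (0.90) and was not called. Ccl3 was at 693 and 1483 CPM (1.09), and Ccl4 at 763 and 2259 CPM (1.55). None of 4 neutrophil-attracting chemokines tested was called (median 0.47). Of 7 other cytokines and growth factors, 4 were called higher: Inhba, the activin A subunit, at 11.3 and 106 CPM (2.45), Csf1 at 6.09 and 54.3 CPM (1.999), Tnf at 59.0 and 134 CPM (1.06), and Gdf15 at 30.4 and 75.2 CPM (1.08). For Gdf15, 1 KO cell held 54.5% of the UMIs. The IL-1 receptor antagonist Il1rn was the 1 gene called among 8 of the interleukin 1 family and inflammasome, at 195 and 583 CPM (1.53).

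A group of lipid handling and matrix genes accompanied them. Of 15 lipid handling genes, 5 were called higher (median 0.36), among them the fatty acid receptor Cd36 at 39.6 CPM in WT and 241 CPM in KO (2.34), the lipase Lpl at 253 and 554 CPM (1.10) and Gpnmb at 32.3 and 91.9 CPM (1.27). Spp1, which encodes osteopontin, was at 1062 and 4853 CPM (2.18), with 18.3% of its KO UMIs in 1 cell. Of 14 matrix and protease genes, 6 were called higher and 1 lower (median 0.41). The urokinase receptor Plaur was at 153 and 525 CPM (1.71), urokinase itself, Plau, at 12.2 and 54.3 CPM (1.53), and the protease inhibitor Timp1 went the other way at 56.7 and 18.9 CPM (-1.20). The metalloproteases Mmp12 and Mmp13 had log2 ratios of 2.65 and 2.79, but 1 KO cell held 37.4% of the Mmp12 and 21.1% of the Mmp13 UMIs. Of the genes furthest up by size, Ch25h, which makes an oxysterol from cholesterol, was at 2.50 and 72.4 CPM (2.72). The lectin Mgl2 (2.31), the cyclin Ccnd1 (2.003) and Pmepa1, a target of TGF-β signalling (2.50), were the others.

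Acute phase genes were the most reduced list with more than 3 genes tested. Of 6 tested, 5 were called lower (median -1.83). The iron-binding lipocalin Lcn2 was at 233 CPM in WT and 8.77 CPM in KO (-3.69), Saa3 at 3476 and 479 CPM (-2.83) and Wfdc21 at 85.0 and 19.2 CPM (-1.70). The formyl peptide receptor Fpr1 (-1.60), the lectin receptor Clec4a1 (-1.79) and Hacd4 (-1.22) were also among the 10 furthest down. The B cell chemokine Cxcl13, a gene of large peritoneal Mφs, was at 312 and 61.9 CPM (-2.16), but it was found in 23 WT and 4 KO cells. Of the 3 peritoneal Mφ genes tested, 2 were called lower and 1 higher.

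Some of these genes are also transcribed by neutrophils, and neutrophil markers moved with them. The 6 gate markers of neutrophils summed to 547 CPM in the WT and 224 CPM in the KO monocytes/Mφs, with S100a8 at 342 and 42.7 CPM. In an alternative added after the values were seen, the 319 WT and 44 KO cells without a UMI of S100a8, S100a9, Cxcr2 or Csf3r were compared. Among these cells Saa3 was still called lower (705 and 244 CPM, -1.49), and Clec4a1 stayed at -1.56. Hp (-0.89), Wfdc21 (-0.68), Fpr1 (-0.79), Hacd4 (-0.95) and Spp1 (0.95) were not called. Lcn2 was at 23.4 CPM in WT and 0 CPM in KO, under the 50 CPM needed for testing. Of 4 acute phase genes tested, 1 was lower (median -0.63). Cd81 (2.77), Cd9 (1.71) and 5 of 7 MHC class II genes (median 1.14) were still called higher. The monocyte list fell to 1 of 10 lower (median -0.77), the lipid list to 2 of 13 higher (median -0.0032), and the matrix and protease list to 3 of 13 higher and 1 lower (median -0.037). The neutrophil-attracting chemokines turned direction there, with 2 of 4 called lower (median -1.27).

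Of 9 scavenger and dead-cell uptake genes, 2 were called higher and 1 lower (median 0.17). Besides Cd36, the receptor tyrosine kinase Axl, which binds dying cells, was called higher, at 58.7 CPM in WT and 180 CPM in KO (1.47). Itgax, which encodes the integrin CD11c, was at 26.4 and 132 CPM (1.97) and was the 1 gene called among 9 complement genes and receptors. Of 13 iron and oxidative stress genes, Slc7a11 was called higher, at 72.2 and 181 CPM (1.22), while the superoxide dismutase Sod2 was at 821 and 368 CPM (-1.14) and Cd163 was also lower. Hilpda, a hypoxia-inducible lipid droplet gene, was the 1 gene called among 16 of glycolysis and hypoxia, at 82.2 and 234 CPM (1.40). Irak3, an inhibitor of Toll-like receptor signalling, was the 1 gene called among 10 of Toll-like receptors and sensing, at 73.9 and 28.8 CPM (-1.11).

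Other programmes showed no called gene. Among 19 interferon-stimulated genes the median was -0.42, among 10 cathepsins 0.07, and among 20 respiratory chain genes -0.11, with 0 calls in each. The genes next to Ccr2 were looked at as a group, since a targeted allele can carry sequence of its donor strain on either side. Of 72 genes within 5 Mb of Ccr2, 13 were tested in monocytes/Mφs. Cx3cr1 was the 1 gene called, and the median was 0.04. In neutrophils 10 were tested and the ribosomal gene Rpsa was the 1 called, at 336 CPM in WT and 153 CPM in KO (-1.09).

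**Figure D3:**
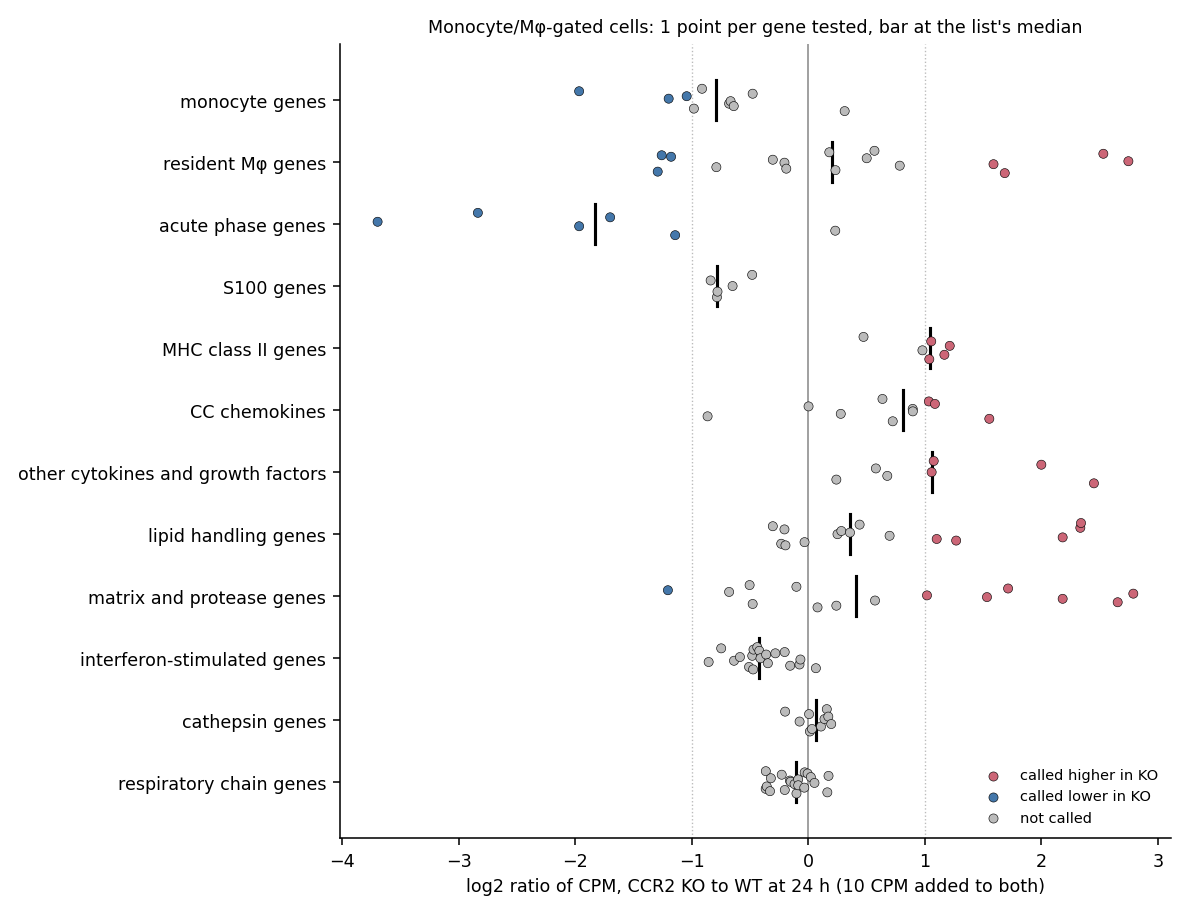
Log2 ratio of CPM in monocyte/Mφ-gated cells, CCR2 KO to WT at 24 h with 10 CPM added to both (x axis), for each gene tested (points) in 12 lists, with the list's median as a bar. MHC class II genes lay to the right (4 of 6 called higher), acute phase genes to the left (5 of 6 called lower), and no respiratory chain gene was called. Most of the acute phase calls were lost in cells without neutrophil markers.

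Neutrophils made up most of the KO library, and those cells differed from the WT neutrophils in a defined group of genes. Lower in KO were 6 of 12 genes of a granule list, and higher were 8 of 10 cytokines and growth factors. The genes of that list are called granule genes here, though not all encode granule proteins. The compared cells were 302 in WT and 1298 in KO, with medians of 2101 and 2971 UMIs. Of 2617 genes tested, 93 were called higher in KO (3.55%) and 91 lower (3.48%), and the median over all genes was 0.07. The lower calls numbered 40 by the mean over cells, 49 in clusters and, in alternatives chosen after the values were seen, 51 in thinned cells and 55 in cells without Mφ gate markers, with 64.5 to 71.0% of calls higher against 50.5%. Without the cells that the doublet caller Scrublet called, 300 WT and 1298 KO neutrophils remained, and 59.7% of calls were higher. The balance of the calls thus rested in part on very few WT cells. Of the gate markers, which the choice of cells had used, Cxcr2 was at 1157 CPM in WT and 1174 CPM in KO and S100a8 at 41611 and 28516 CPM. Both genotypes were found in the same neutrophil clusters at unlike shares, and cluster 2 held 62 WT and 574 KO cells while cluster 4 held 115 and 335.

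The granule genes are transcribed in sequence as neutrophils mature, under factors that include the C/EBP family, which binds motifs of the form TTGCNNAA. Because these genes moved together, the 250 bases before their start sites were searched for TTGCNNAA on both strands (TTNNGCAA on the other strand) in RefSeq promoters of GRCm38.p6. The motif was found for 4 of the 6 genes of the list called lower. It was also found for 2 of the 5 others with a promoter in the table, Ly6g and Anxa1. Over all promoters it was found in 3142 of 32851 (9.56%). Genes of the list were counted with a match in any of their promoters and the background by single promoters, so these shares are not like for like. Chil3 and Chil1, both called lower, had no match in this window. A match describes the sequence only. The matches of the called genes are shown on the gene's own strand, 5′ to 3′, with the motif in capitals.
Ngp, chr9:110419659-110419688, plus strand: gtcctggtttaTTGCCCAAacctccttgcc
Ngp, chr9:110419778-110419807, plus strand: tttatgtcaccggcagttcTTGGGCAAggc
Lcn2, chr2:32387937-32387966, minus strand: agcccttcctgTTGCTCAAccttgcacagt
Mmp8, chr9:7558399-7558428, plus strand: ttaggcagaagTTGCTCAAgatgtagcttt
Retnlg, chr16:48872358-48872387, plus strand: agctTTCTGCAAggcattccaggcacctcc

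Of 12 granule genes tested, 6 were called lower and 0 higher, with a median of -1.05. The list also held Ly6g, Ltb4r1, Padi4 and Anxa1, which do not encode classical granule proteins, and none of them was called. Ngp, a secondary granule protein, was at 141 CPM in WT and 2.92 CPM in KO (log2 ratio -3.55), on 115 and 12 UMIs. The chitinase-like gene Chil3 was at 1818 and 165 CPM (-3.39), Lcn2 at 12313 and 1224 CPM (-3.32) and the resistin-like gene Retnlg at 7764 and 1026 CPM (-2.91). The collagenase Mmp8 was at 332 and 106 CPM (-1.56) and Chil1 at 824 and 306 CPM (-1.40). Mmp9, a gene of late-forming granules, did not follow them, at 2393 and 2236 CPM (-0.10). Ly6g was at 79.7 and 47.4 CPM (-0.64) and was not called. Chil3 shares sequence with Chil4, so that its UMIs may be misassigned.

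The difference was present cell by cell at equal depth. After each cell was thinned to 1000 UMIs, Lcn2 was found in 76.4% of WT and 37.7% of KO neutrophils (78.8% and 52.5% unthinned), and in 0.0% and 1.5% of lymphocytes, which should lack it. Retnlg was found in 47.9% and 15.4% of the thinned neutrophils, and Chil3 in 39.4% and 8.0%. In a sum of 7 granule genes, chosen with their values known (Retnlg, Lcn2, Ngp, Mmp8, Chil3, Camp and Ltf), the median cell held 0.756% of its UMIs in WT and 0.0594% in KO. Neutrophils with at least 1% of their UMIs in these genes were 130 of 302 in WT (43.0%, 37.4 to 48.8%) and 53 of 1298 in KO (4.08%, 3.07 to 5.31%). The 2 distributions overlapped, but granule-rich cells were common among the WT neutrophils and few among the KO neutrophils.

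**Figure D4:**
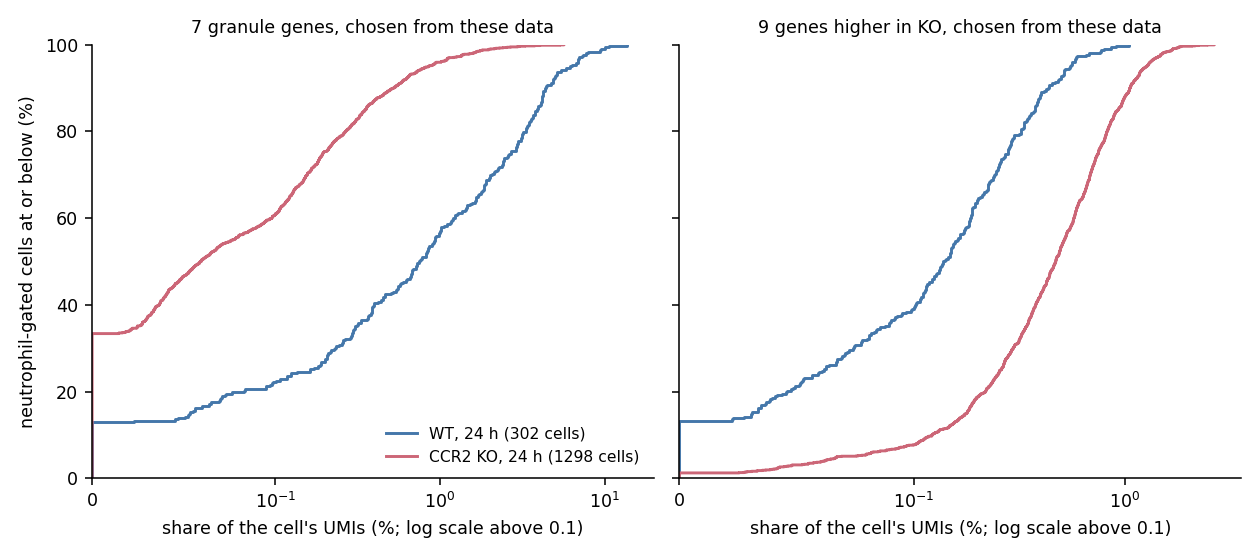
Cumulative share of neutrophil-gated cells (y axis, %) at or below a given share of their own UMIs (x axis, %; log scale above 0.1) in 7 granule genes (left) and in 9 genes that were higher in KO (right), both chosen with their values known. The WT line (blue, 302 cells) lay to the right of the KO line (red, 1298 cells) for the granule genes and to its left for the other genes.

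Acute phase genes were lower as well. Of 7 tested, 5 were called lower (median -1.86), among them Lcn2, which the granule list also holds. In the monocytes/Mφs these genes were lower too, but most of their calls were lost in cells without neutrophil markers. Hp was at 3235 CPM in WT and 1377 CPM in KO (-1.23), Wfdc21 at 3293 and 901 CPM (-1.86) and Saa3 at 1060 and 84.8 CPM (-3.50). Orm1 was found on 62 UMIs in WT and 1 UMI in KO. Neither Saa3 nor Orm1 passed the limits for genes named by size. Their WT UMIs lay in fewer than 10 neutrophils, or more than 20% of them in 1 cell. The genes furthest down by size further held Ifitm6 at 1076 and 233 CPM (-2.16), the transcription factor Pou2f2 at 232 and 58.6 CPM (-1.82), the lipase Lipg at 165 and 40.6 CPM (-1.79) and Rflnb at 105 and 24.3 CPM (-1.75). Clec4a1 was at 65.0 and 7.05 CPM (-2.14). In neutrophils without Mφ gate markers it was at 30.9 and 4.67 CPM, under the 50 CPM needed for testing.

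In the other direction, 8 of 10 cytokines and growth factors were called higher and 0 lower, with a median of 1.17. Csf1 was at 346 CPM in WT and 1095 CPM in KO (1.64), and it was found in 24.3% and 46.3% of thinned cells. Hbegf, a ligand of the EGF receptor, was at 12.3 and 114 CPM (2.47), Inhba at 19.6 and 93.3 CPM (1.80) and Tgfb1 at 113 and 286 CPM (1.27). The IL-6 family cytokine Osm was at 455 and 1043 CPM (1.18), Thbs1 at 822 and 1781 CPM (1.10) and Il23a at 30.6 and 76.1 CPM (1.08). Gdf15 (1.16) rested on 3 WT and 43 KO cells. Tnf was at 629 and 1024 CPM (0.69) and Vegfa at 25.7 and 51.3 CPM (0.78), and neither was called.

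Few survival or activation genes were called. Of 12 cell survival genes, 3 were called higher (median 0.24), and all 3 were Bcl2a1 genes, which encode a BCL-2 family protein that keeps granulocytes alive. Bcl2a1b was at 295 CPM in WT and 1023 CPM in KO (1.76), Bcl2a1a at 174 and 617 CPM (1.77) and Bcl2a1d at 62.5 and 188 CPM (1.45). These are near-identical copies, and their UMIs may be shared among them, so that they count as 1 observation. Mcl1, another survival gene of neutrophils, was at 2708 and 3083 CPM (0.19). Of 22 maturation and activation genes, 2 were called higher and 2 lower (median 0.32). Cd274, which encodes the checkpoint ligand PD-L1, was at 100 and 390 CPM (1.86) and found in 7.7% and 24.8% of thinned cells, whereas Fpr2 was at 640 and 283 CPM (-1.15). Cxcr4, the receptor that returns aged neutrophils to the marrow, was at 484 and 917 CPM (0.91) and was not called.

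The genes furthest up by size in neutrophils were of several kinds. They were Tnfrsf13b, a receptor of BAFF and APRIL (2.52), the short-chain fatty acid receptor Ffar2 (2.50), the lectin receptors Clec4n (536 and 2472 CPM, 2.19) and Clec12a (1.89), the cytokine signalling inhibitor Cish (2.16) and the chemokine Cxcl10 (2.11). Enah (2.31) and Trio (2.13), which act on the actin cytoskeleton, and the nuclear pore gene Nup153 (2.12) completed them with Hbegf. The oxygen sensor Egln3 (1.71), Plaur (1.34) and Cd9 (1.31) were also called higher.

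Most interleukin 1 and interferon-stimulated genes were not called. Il1b was at 17842 CPM in WT and 19140.3 CPM in KO (0.10), while Il1a was at 87.0 and 248 CPM (1.41). Of 12 genes of the interleukin 1 family and inflammasome, 1 was called higher and 1 lower (median 0.30). Of 23 interferon-stimulated genes 1 was called, Gbp5 (1.65), and the median was 0.21. Of 16 immediate early genes 2 were called higher, Ier3 (1.23) and Atf3 (1.08), with a median of 0.16. Irak3 was lower, as in the monocytes/Mφs, at 275 CPM in WT and 78.5 CPM in KO (-1.69), and was the 1 gene called among 11 of Toll-like receptors and sensing. Metabolic and stress genes were divided. Of 18 glycolysis and hypoxia genes, Egln3 was called higher, whereas the glycolysis activator Pfkfb3 was at 128 and 38.2 CPM (-1.51) and the glycolytic enzyme Gpi1 at 439 and 209 CPM (-1.03). Of 14 iron and oxidative stress genes, the thioredoxin reductase Txnrd1 was at 90.7 and 231 CPM (1.26) and Srxn1 at 18.4 and 67.3 CPM (1.45), while Sod2 was at 847 and 353 CPM (-1.24) and the metallothionein Mt1 at 60.1 and 19.2 CPM (-1.26). No respiratory chain gene of 16 and no cathepsin gene of 10 was called.

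RNA of Mφs was found in the WT neutrophils and moved with the genotype. C1qb was at 136 CPM in WT and 5.10 CPM in KO neutrophils, against 2073 and 2438 CPM in monocytes/Mφs, and 1 of the 15 WT neutrophils with a C1qb UMI held 48.6% of them. Ccl7 was at 237 and 25.03 CPM. The 7 gate markers of monocytes/Mφs summed to 559 and 332 CPM in the neutrophils. In an alternative added after the values were seen, only the 139 WT and 575 KO neutrophils without a UMI of those markers were kept. The granule genes gave the same count there (6 of 12 lower, median -1.11), with Lcn2 at 12650 and 1215 CPM (-3.37). Acute phase genes also did (5 of 7 lower, median -1.84), 6 of 9 cytokines and growth factors were higher (median 1.32), and 3 of 12 survival genes. The 4 of 5 MHC class II genes, 3 of 8 complement genes and 4 of 6 resident Mφ genes that had been called lower in all neutrophils gave 0 lower calls.

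**Figure D5:**
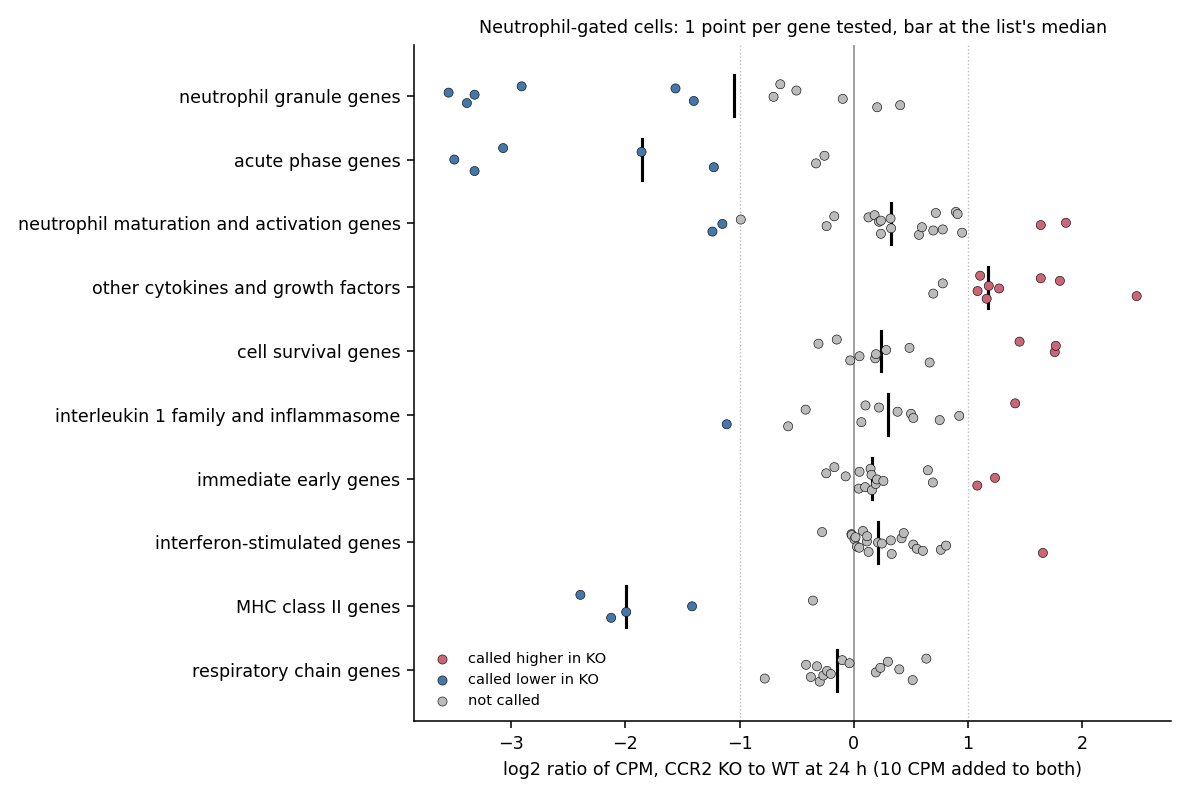
Log2 ratio of CPM in neutrophil-gated cells, CCR2 KO to WT at 24 h with 10 CPM added to both (x axis), for each gene tested (points) in 10 lists, with the list's median as a bar. Granule genes (6 of 12) and acute phase genes (5 of 7) were called lower and 8 of 10 cytokines and growth factors higher; the 4 MHC class II genes called lower were not called in cells without Mφ markers.

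The DCs were few, 41 in WT and 56 in KO, and were described by lists only. Of 3391 genes tested, 57 were called higher (1.68%) and 48 lower (1.42%), with a median of -0.03. Interferon-stimulated genes were lower in KO, with 8 of 15 called lower, 0 higher and a median of -1.12. Isg15 was at 427 CPM in WT and 183 CPM in KO (-1.18), and Irf7, the factor that amplifies interferon production, at 251 and 91.3 CPM (-1.36). All 4 CC chemokines tested were called lower (median -1.75), among them Ccl6 at 321 and 40.5 CPM (-2.71) and Ccl4 at 263 and 89.7 CPM (-1.45). Markers of monocytes/Mφs moved with them. The gate markers of that class were at a median of 9.32 UMIs per 10000 in WT and 4.44 in KO DCs, Saa3 was at 72.3 and 1.59 CPM and C1qb at 9.23 and 0.794 CPM, and their part in the result was not tested. None of 7 MHC class II genes was called (median -0.21), with H2-Aa at 9015 and 7277 CPM. Ccl17, a chemokine for CCR4+ T cells, was at 698 and 2445 CPM (1.79), with 32.6% of its WT UMIs in 1 cell.

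Ccr2 was at 486 CPM in WT and 30.9 CPM in KO DCs (-3.60). Cell division genes were called higher in 3 of 8 (median 0.55), with Top2a at 26.1 and 94.4 CPM (1.53), but 1 KO cell held 59.7% of its UMIs. In type 2 DCs alone, an alternative added after the values were seen, 7 of 16 interferon-stimulated genes (median -0.88) and 4 of 4 CC chemokines (median -1.87) were lower. With DCs taken from the clusters, 4 of 15 interferon-stimulated genes were called lower and 0 of 5 cell division genes were called.

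At 72 h, the same rule called 3.79% of genes higher and 2.11% lower in monocytes/Mφs, and 0.862% higher and 0.957% lower in neutrophils. The granule genes of neutrophils, 6 of 12 of which were lower at 24 h, were then called higher in 4 of 11 (median 0.64, against -0.08 over all genes).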

How the data were processed

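Per the labels and the study's methods, CD45+ cells were run on the 10x 3′ v3 assay and the authors counted reads with Cell Ranger 3.0.2 against the mouse genome GRCm38 (mm10). The deposited table holds UMI counts, not normalized, of 16308 genes in the cells the authors had kept (at least 200 genes and at most 10% mitochondrial UMIs). Depth was 21206308 UMIs in WT and 10436694 in KO at 24 h, and small classes are limited by it. GENCODE genes of GRCm38 matched 16133 of the symbols.

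Cells were assigned to the class with the highest scaled mean of its markers when at least 3 different markers, a score of at least 0.15 and a margin of 0.05 over the second class were present. Markers, gene lists and members were chosen with earlier results of these data known. Markers of the gates were left out of all comparisons within classes, and mitochondrial and ribosomal protein genes were not named by size. UMIs were summed per library and class as CPM, and log2 ratios were taken with 10 CPM added. A gene was tested with at least 50 CPM in the higher library and 20 UMIs in both together. Members of the lists could be named, and so could the 10 genes furthest up and the 10 furthest down among those called, with UMIs in at least 10 cells of the higher library and no cell with more than 20% of them. In DCs none was named by size, since 1 library held under 50 cells. Shares have exact Clopper-Pearson intervals, differences of shares Newcombe intervals, and ratios the exact conditional interval of a pair of Poisson counts, taken without the added 10 CPM. Intervals of the ratios were used for the calls.

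Alternatives were another scaling (edgeR 4.0.16 TMM factors, median of ratios), other pseudocounts, no minimum level, the mean over cells, at most 5% mitochondrial UMIs, Leiden clusters, stricter and looser gates, cells thinned to 1000 UMIs, and doublets removed. Scrublet called 11 of 5811 cells (0.189%) and so did not work as a filter, and doublets remain in the data. Leaving out the called cells still moved the neutrophil calls, with 59.7% of them higher in KO against 50.5%. Python 3.11.15, numpy 2.4.6, scipy 1.17.1, pandas 2.3.3, scanpy 1.11.5, leidenalg 0.10.2 and R 4.3.3 were used. Scripts were tested on simulated data.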

Additional observations from a re-analysis of the deposited data

Results flagged for a closer look

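The libraries at 72 h were read in the same way. Of the lists with at least 4 genes tested at both times, 16 of 29 in monocytes/Mφs and 13 of 27 in neutrophils had medians on opposite sides of 0. In 3 of them both medians were at least 0.5 from 0. The difference between the times was not tested, since each group was 1 library. In monocytes/Mφs, the log2 ratios of KO to WT had a median of 1.05 over the MHC class II genes at 24 h (4 of 6 called higher) and -1.5 at 72 h (5 of 7 called lower). At 72 h, 2.11% of all genes tested in monocytes/Mφs were called lower, and their median was 0.12. In neutrophils, the median over the granule genes was -1.05 at 24 h (6 of 12 called lower) and 0.64 at 72 h (4 of 11 called higher). In neutrophils, the median over the MHC class II genes was -1.99 at 24 h (4 of 5 called lower) and 0.63 at 72 h (1 of 4 called higher), and the 24 h calls were lost in cells without Mφ markers. At 72 h, 0.862% of all genes tested in neutrophils were called higher, and their median was -0.08. Among the other lists, the cytokines and growth factors of neutrophils went from 1.17 to -0.16, their acute phase genes from -1.86 to 0.22, and the immediate early genes of monocytes/Mφs from 0.20 to -1.19, with 12 of 17 called lower at 72 h.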

How the results depend on the processing

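No paired analysis was possible because each group was 1 library, and no replicate could be left out. Differences of shares moved, in points, for neutrophils with 1 more marker (51.5) and with thinned cells (51.9), for monocytes/Mφs with thinned cells (-44.9), for innate lymphoid cells in clusters (0.835, interval 0.327 to 1.43), and at 5% mitochondrial UMIs for T cells (1.96) and B cells (0.182). With a pseudocount of 50 CPM the calls fell to 194 higher and 56 lower over all cells, 33 and 10 in monocytes/Mφs, 43 and 45 in neutrophils and 15 and 14 in DCs. A pseudocount of 1 CPM gave 73 lower in DCs. Without a minimum level there were 579 higher over all cells, 141 and 158 in neutrophils, and 159 and 98 in DCs. By the mean over cells 670 were lower over all cells, with the median of all genes at -0.30, and 40 were lower in neutrophils, where 66.1% of calls were then higher, against 50.5%. Median of ratios put 81.0% of calls over all cells higher, with the median of all genes at -0.05. In neutrophils, 49 were lower in clusters and, in alternatives chosen after seeing the data, 55 in cells without Mφ gate markers and 51 in thinned cells. In clusters 2 medians changed sign, MHC class II genes in neutrophils (0.38) and cell division genes in DCs (-0.073); the cause was not tested. Of 620 values of the 60 pairs of gene and class named by size, 0 changed sign, and 120 moved by more than a set tolerance. These genes were picked for large ratios in the same UMIs, so that a kept sign was nearly fixed in advance. Of 386 medians of lists at least 0.5 from 0 only these 2 changed sign, and 63 others moved by more than the tolerance. Lists nearer to 0 were not counted, and in monocytes/Mφs without neutrophil markers, among others, the lipid (-0.0032), matrix and protease (-0.037) and neutrophil-attracting chemokine (-1.27) medians turned negative.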

Other observations

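Ribosomal protein genes, which were not named in the comparisons, gave lower calls in KO neutrophils that depended on which cells were kept, including cells left out after the values were seen. Of 73 tested in neutrophils, 1 was called higher and 13 lower, with a median of -0.53. In the 139 WT and 575 KO neutrophils without a UMI of a Mφ gate marker, 5 of 66 were called higher and 0 lower, with a median of 0.26. Leaving out 2 WT neutrophils, those that Scrublet called doublets, gave 1 ribosomal protein gene higher and 3 lower of 72, with a median of -0.24, while the granule genes gave 6 of 12 lower as before.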
